A study of Mus musculus with 6 samples.

Results

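The genes described here encode calbindin, calretinin, parvalbumin and the neuronal calcium sensor proteins, and all 10 of them had an entry in the authors' table, on 11 of its 20633 rows. The members were chosen by the transcriptional response of *Calb2* and *Hpcal4* in the authors' comparison of OHT with UNT, together with their relatives, so that response is no result here and no test of it is given. Where a gene had several rows, the row with the highest level was kept, which concerned *Ncald* alone. The study made 6 nuclear RNA libraries from a mouse embryonic stem cell line with the genotype *Rybp*fl/fl;*Yaf2*-/-. In 3 of them the cells were untreated (UNT), and in 3 they had been kept for 96 hr in 4-hydroxytamoxifen (OHT) at 800 nM. All libraries carry the *Yaf2* deletion, which was made by genome editing in 1 cell line, and loxP sites on both *Rybp* alleles, which a tamoxifen-inducible Cre recombinase recombines after OHT. Cells with intact *Rybp* alleles were not given OHT in this design, so a response to OHT or Cre and the loss of RYBP cannot be told apart.

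The level used throughout is the authors' mean, a read count per gene normalized for library size and averaged over the UNT and OHT libraries together. Values of single libraries were not used here, which leaves depth, the spread between replicates and the level in each group unknown, and no difference between UNT and OHT is given. The levels say how many reads of nuclear RNA each gene drew on average. They are not corrected for gene length, so between genes the levels and their percentiles also reflect length. Gene span is the length planned for comparing genes, because nuclear RNA holds unspliced transcripts. Exonic length is given as an alternative only. A level per kb of exonic length may also reflect reads from introns, so ratios on that scale partly follow how much of each span is intron. The levels carry no error, so an order between genes is a description. The means of *Calb2* and *Hpcal4* include the OHT libraries. The response by which the set was chosen is therefore part of their levels, ranks and ratios to other genes.

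Calcium signals are short rises in free calcium in the cytosol. Proteins with EF-hands, helix-loop-helix motifs that hold a calcium ion, bind that calcium. Some of them, such as calbindin, calretinin and parvalbumin, act mainly as buffers that limit the size and duration of the signal. Others are sensors that change shape on binding calcium and then act on a target protein. The neuronal calcium sensors belong to the latter kind, and most of them carry a fatty acid, myristate, on an N-terminal glycine, through which several attach to membranes when calcium rises. In the adult, these genes are known for their use in neurons and in the retina, and the buffers serve as standard labels of interneuron classes. RYBP is a subunit of variant PRC1 complexes, which place ubiquitin on histone H2A. The mark is enriched at CpG islands of genes that are silent or weakly transcribed in embryonic stem cells. The paper proposes that a proportion of it lies outside the classical Polycomb targets.

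The first 30 coding bases of the transcript matched to the entry of each gene are shown because they separate sensors from buffers. The second codon, in capitals, is GGN, a glycine codon, in all 7 sensor genes and in 0 of the 3 buffer genes. The sequences are those of GENCODE vM21 transcripts, 5′ to 3′, in the sense of the gene.
Calb1: atgGCAgaatcccacctgcagtcatctctg
Calb2: atgGCTggcccgcagcagcagcccccttac
Pvalb: atgTCGatgacagacgtgctcagcgctgag
Hpca: atgGGCaagcagaacagcaagctgcggcca
Hpcal1: atgGGCaagcagaacagcaagctgcgtcct
Hpcal4: atgGGGaaaaacaacagcaagctggccccc
Ncald: atgGGGaaacagaacagcaagctgcgccct
Vsnl1: atgGGGaaacagaatagcaaactggcccca
Ncs1: atgGGGaaatccaacagcaagttgaagcct
Rcvrn: atgGGGaacagcaagagcggtgccctgtcc
*Hpca* and *Hpcal1* differ at 2 of these bases. Whole coding sequences divided the genes further. The 5 genes *Hpca*, *Hpcal1*, *Hpcal4*, *Ncald* and *Vsnl1*, called visinin-like below after the visinin-like proteins that several of them encode, had identities of 65.1% to 86.1% of alignment columns over their 10 pairs. The other 35 pairs ranged from 24.5% to 64.1%.

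Within the visinin-like genes 2 closer groups stood out. *Hpca*, *Hpcal1* and *Ncald* were 78.7% to 86.1% identical, and *Hpcal4* with *Vsnl1* was 82.1% identical. Identity between *Hpcal4* and *Hpcal1*, in spite of their names, was 70.4%. *Ncs1* was 61.9% to 64.1% identical to the visinin-like genes and *Rcvrn* 55.3% to 59.8%. Among the buffers, *Calb1* and *Calb2* were 61.7% identical, while *Pvalb*, whose coding sequence of 333 bp is the shortest, reached 26.6% at most with either of them, a figure limited by the difference in length. In local alignments *Pvalb* was 47.8% identical to *Calb1* and 46.9% to *Calb2*. Reads were 40 bases long, and 1 of the 45 pairs, *Hpca* with *Ncald*, shared an exact coding stretch of at least that length, of 46 bp. A single read inside it would match both genes. Pairs of reads were counted, and whether the other read of such a pair tells the genes apart was not tested. Introns were not compared.

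**Figure D1:**
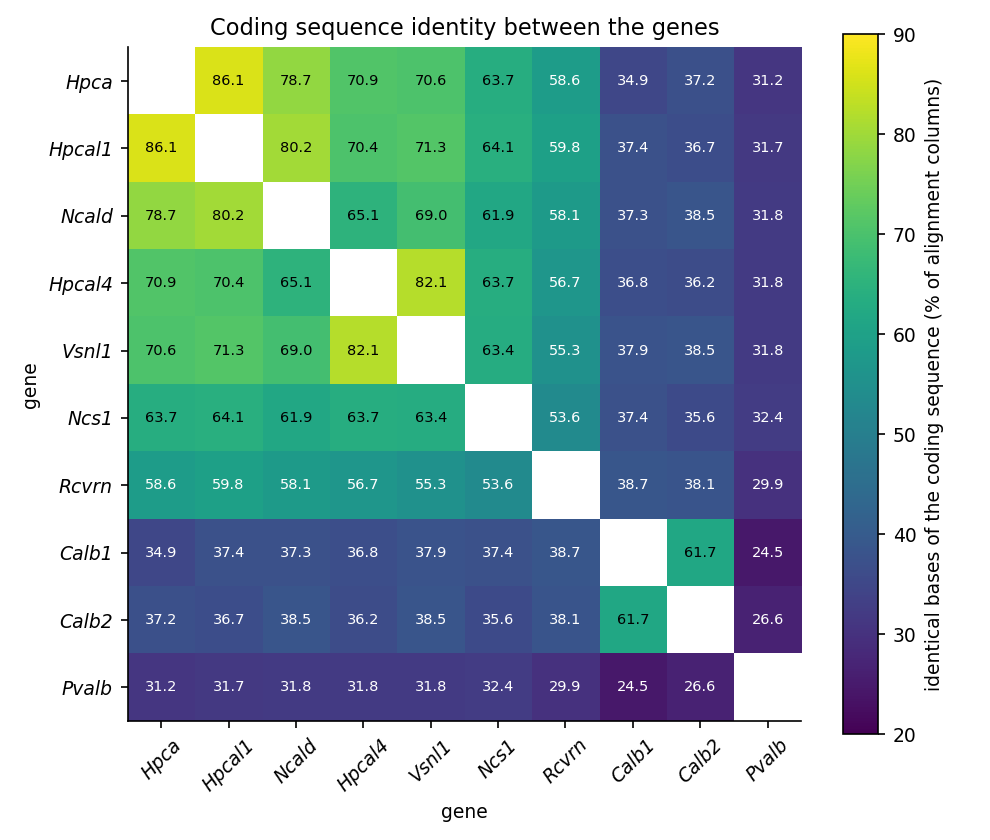
Identical bases in global alignments of the coding sequences, as a percentage of alignment columns with gaps counted, for each of the 45 pairs of genes. The visinin-like genes form the block of high values at the upper left, with 86.1% for *Hpca* and *Hpcal1* and 82.1% for *Hpcal4* and *Vsnl1*.

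The read counts of these genes were mostly low in these cells. Of the 10 genes, 2 lay over the median of all entries, 236.4 normalized read counts, against 50.0% of all entries by construction. Their median level was 35.1 normalized read counts, and their median percentile among all entries was 32.4. No member was listed at 0, whereas 1435 entries were. *Hpcal1* alone made up 76.6% of the summed level of the 10 genes, a share of read counts not corrected for gene length.

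**Figure D2:**
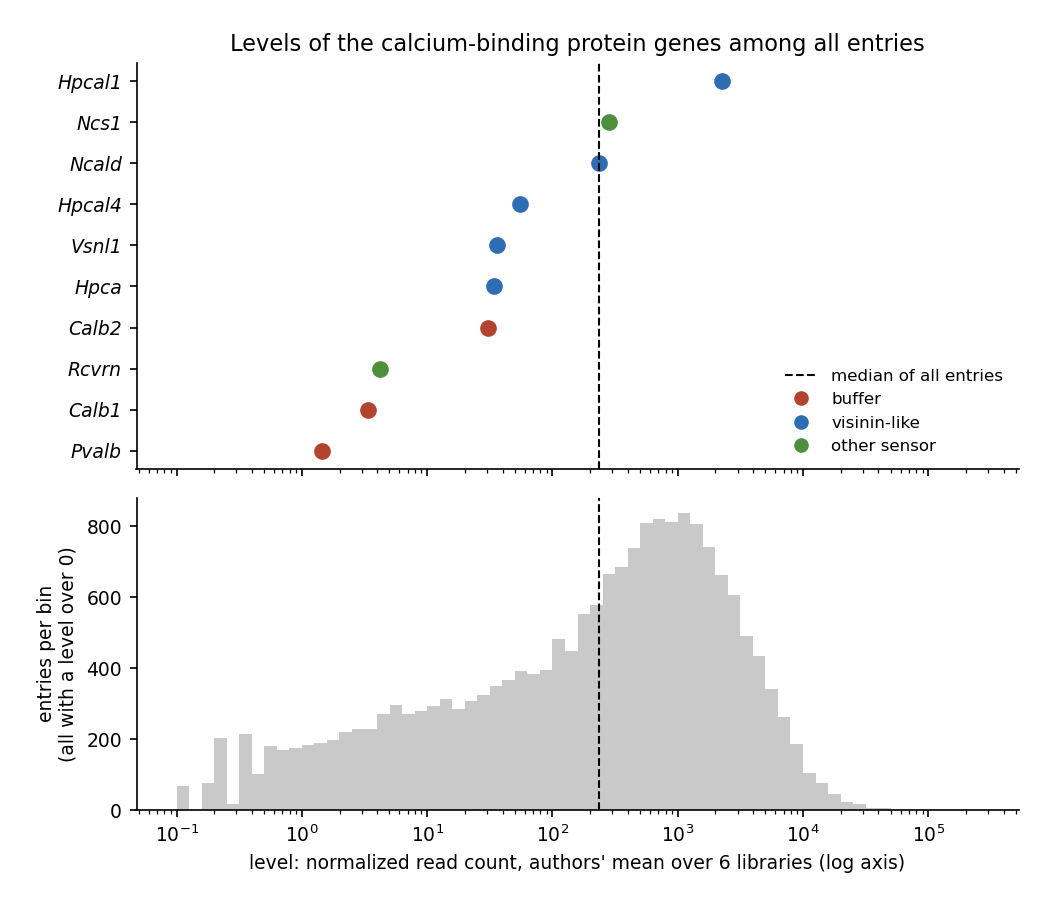
Level of each gene (upper panel) above the distribution of the 19198 entries with a level over 0 (lower panel), both on a log axis in normalized read counts, the authors' mean over 6 libraries, with no error available. The dashed line is the median of all entries, 236.4, which *Hpcal1* and *Ncs1* exceed and *Ncald* nearly reaches, while *Rcvrn*, *Calb1* and *Pvalb* lie under 10.

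The calcium buffers were low. *Calb2*, which encodes calretinin, a buffer of interneurons and sensory neurons, lies at 110142526 to 110168212 of chromosome 8 (mm10, minus strand). Its level was 30.6 normalized read counts, at percentile 31.4. *Calb1*, which encodes calbindin, a buffer abundant in cerebellar Purkinje cells, had a level of 3.37, at percentile 18.0. *Pvalb*, which encodes parvalbumin, the buffer of fast-spiking interneurons and fast muscle, was the lowest member at 1.44, percentile 14.2. Summed over all 6 libraries, this corresponds to 8.62 normalized read counts for *Pvalb*, 20.2 for *Calb1* and 183.9 for *Calb2*. The values of *Pvalb* and *Calb1* thus rest on few reads. *Calb1* and *Calb2* have nearly the same span, 25.4 kb and 25.7 kb and both transcripts have 11 exons, but the exonic length is 4.22 kb for *Calb1* and 1.43 kb for *Calb2*. Per kb of gene span, *Calb2* had 1.19 normalized read counts, *Calb1* 0.133 and *Pvalb* 0.0939. The level of *Calb2*, which includes its response in the OHT libraries, was thus 12.7 times that of *Pvalb*. Per kb of exonic length, the level of *Calb2* was 26.8 times that of *Calb1*. The *Calb1* transcript behind that length ends at 15908064, past the end of the gene span at 15906709. Whether reads past the span were counted is not given in the sources used here, so the level of *Calb1* per kb of exonic length may be too low.

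The visinin-like sensors spread over a wider range. *Hpcal1*, a relative of hippocalcin (chromosome 12, plus strand, 17690750 to 17791944), reached 2236 normalized read counts, at percentile 85.7. It is the 1 member well inside the upper part of the distribution of read counts. Per kb of gene span it lay at percentile 62.7. *Hpca* encodes hippocalcin itself, a sensor of hippocampal pyramidal neurons. Its closest relative in sequence is *Hpcal1*, but its level was 34.0, at percentile 32.2. *Ncald*, which encodes neurocalcin delta, had a level of 233.4, at percentile 49.8. The pair *Hpcal4* and *Vsnl1*, alike in sequence, had read counts at similar percentiles. *Hpcal4* (chromosome 4, plus strand, 123183504 to 123194699) had 54.8 normalized read counts, at percentile 35.8. *Vsnl1*, which encodes a visinin-like protein of cortical and hippocampal neurons, had 36.3, at percentile 32.7. Per kb of gene span, *Hpcal1* had 9.32 times the level of *Hpca*, its nearest relative. The ratio was 4.81 by the span of the GENCODE transcripts matched to the entries and 79.6 per kb of exonic length. For *Hpcal4* and *Vsnl1* the direction depended on the length, with 4.89 against 0.326 normalized read counts per kb of gene span and 11.1 against 19.1 per kb of exonic length.

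The remaining sensors are more distant relatives. *Ncs1* encodes neuronal calcium sensor 1, the mammalian form of frequenin, which is used in secretory cells and neurons and found in many other tissues. Its level was 283.9 normalized read counts, at percentile 52.4. *Rcvrn* encodes recoverin, which inhibits rhodopsin kinase in photoreceptors. It had a level of 4.17, at percentile 19.1.

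Read counts grow with gene length, and nuclear RNA holds introns, so levels were also divided by the gene span. The spans ran from 8.03 kb for *Rcvrn* to 426.3 kb for *Ncald*. Per kb of gene span, the order was *Hpcal1* at 22.1 normalized read counts, *Ncs1* at 5.65, *Hpcal4* at 4.89, *Hpca* at 2.37, *Calb2* at 1.19, *Ncald* at 0.547, *Rcvrn* at 0.520, *Vsnl1* at 0.326, *Calb1* at 0.133 and *Pvalb* at 0.0939. On this scale 1 member, *Hpcal1*, exceeded the median of all entries, 9.45. Percentiles per kb were 62.7 for *Hpcal1*, 43.8 for *Ncs1*, 42.3 for *Hpcal4*, 36.0 for *Hpca* and 30.5 for *Calb2*. They were 24.9 for *Ncald*, 24.6 for *Rcvrn*, 21.5 for *Vsnl1*, 16.2 for *Calb1* and 14.5 for *Pvalb*. *Hpcal4* came within 1.15 times of *Ncs1* with 54.8 against 283.9 normalized read counts, over spans of 11.2 kb and 50.3 kb. *Ncald* and *Rcvrn* differed by 1.05 times. With no spread between libraries, it cannot be said which neighbours in this order differ.

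The choice of length altered the order below *Hpcal1*, with gene span as the planned length and exonic length as the alternative. Exons of the longest annotated transcript make up 44.0% of the *Hpcal4* span, 0.876% of the *Ncald* span and 1.51% of the *Hpcal1* span. Per kb of exonic length, *Hpcal1* stayed first with 1465 normalized read counts, *Ncald* rose to the second place with 62.5 and *Hpcal4* moved to the seventh with 11.1. *Calb2* had 21.4 on this scale, above *Hpcal4*, whereas per kb of gene span it lay below. The last place passed from *Pvalb* to *Calb1*, with 1.47 and 0.799 normalized read counts per kb of exonic length. The GENCODE transcript matched to the RefSeq entry of *Hpca* spans 7.40 kb of the 14.4 kb gene. Over that span the level per kb was 4.60, against 4.77 for *Hpcal4* over its matched transcript. Whether the authors counted *Hpca* over that span is not given in the sources used here.

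**Figure D3:**
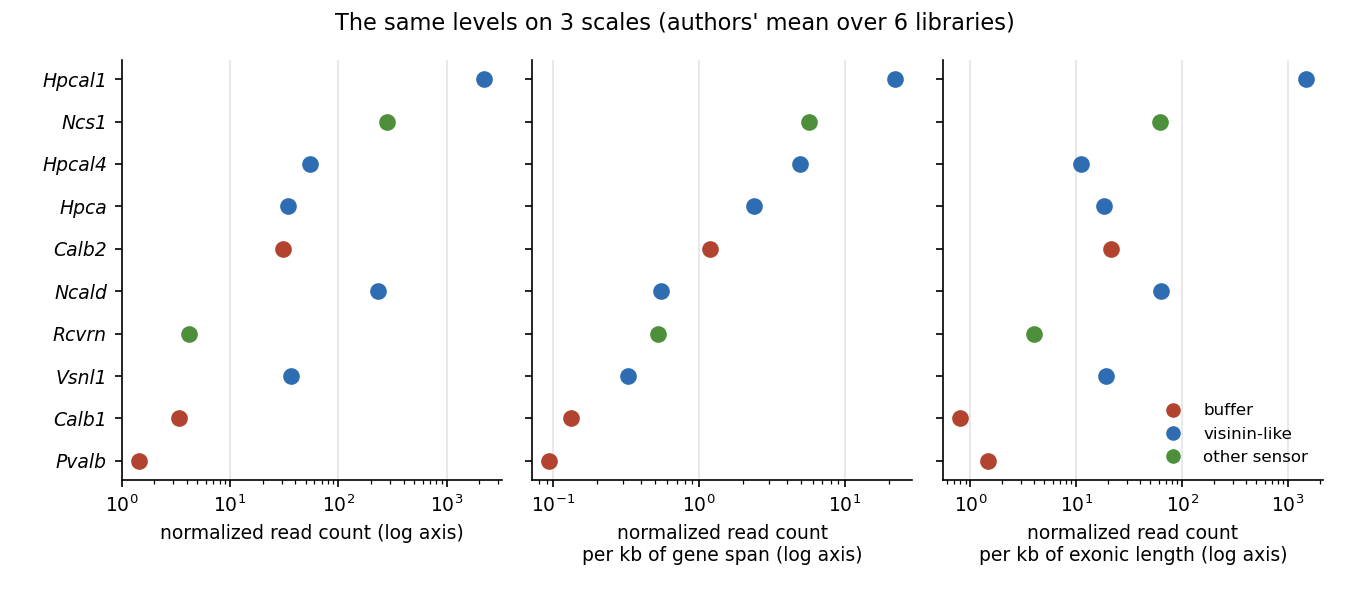
The same levels as normalized read counts, per kb of gene span and per kb of exonic length of the longest transcript, each on a log axis, with genes ordered by the middle panel and no error available. *Hpcal1* is highest in each panel, while *Ncald* moves from 0.547 in the middle panel to 62.5 in the right panel, where it is second.

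*Ncald* had 2 rows. The row kept was matched to a GENCODE transcript of 425.8 kb. The other, with a level of 29.5, was matched to one of 93.1 kb that ends near the same place and starts further downstream. Per kb of each transcript these were 0.548 and 0.317 normalized read counts. Both rows lie over shared sequence, and how reads in it were assigned is not given in the sources used here.

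Other entries lay on or close to 5 of the genes. The 3′ end of *Hpca* overlaps *Tmem54*, on the opposite strand, by 57 bp, and *Tmem54* had 52.3 normalized read counts. *Rcvrn* lies within *Glp2r*, on the opposite strand, which had 2.92. It starts 6334 bp past the end of *Gas7*, on its own strand, which had 358.8. *Ncald* overlaps *4930447A16Rik*, on the opposite strand, which was listed at 0, and *Gm15941*, on its own strand, which had 3.37. It ends 2606 bp from *Grhl2*, which had 788.9. An annotated transcript without an entry, *Gm49397*, overlaps 301859 bp of *Ncald* on the same strand, and other annotated features without an entry lie there too. Strand does not separate reads of *Ncald* from those of *Gm15941* or *Gm49397*. *Vsnl1* lies 5472 bp from *Smc6*, on the opposite strand, with 4506 normalized read counts, and 1655 bp from *4930511A02Rik*, with 0.750. Downstream of *Hpcal4*, *Nt5c1a* begins after 6531 bp on the same strand and had 1.88. The library kit keeps strand, but whether the counting used it is not given in the sources used here, so reads of overlapping genes on opposite strands cannot be told apart. *Calb1*, *Calb2*, *Pvalb*, *Hpcal1* and *Ncs1* had no other entry within 10 kb.

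Promoter windows of 300 bases, from 250 before to 50 after an annotated start, were given by RefSeq (GRCm38.p6) for 6 of the 10 genes, with 10 windows in all. They are described because PRC1 is enriched at CpG islands, and the sequence of the windows played no part in choosing the genes. A window was counted as CpG-rich with an observed/expected CpG ratio of at least 0.6 and a G+C content of at least 50%. Of the 10 windows, 6 were CpG-rich, against 33.5% of all 32851 windows. As windows of 1 gene share a locus, they are not independent. For each gene the window nearest to the start of its matched GENCODE transcript was taken. Those of *Ncs1*, *Hpcal1*, *Hpcal4* and *Vsnl1* were CpG-rich and those of *Hpca* and *Pvalb* were not. *Ncs1* had the highest ratio, 0.929, with 40 CpGs and a G+C content of 76.0%, at percentile 89.5 of all windows. *Hpcal1* and *Hpcal4* were alike, with ratios of 0.781 and 0.772 and percentiles of 77.5 and 76.9.

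The windows of *Hpcal1*, *Hpcal4* and *Pvalb* are printed to show the member with the highest level, the one of *Calb2* and *Hpcal4* that has a window, and the member with the lowest level. CpGs are in capitals, and each window reads in the sense of the gene. That of *Hpcal1* is chr12:17690559-17690858 on the plus strand, that of *Hpcal4* chr4:123183254-123183553 on the plus strand and that of *Pvalb* chr15:78206351-78206650 on the minus strand.
Hpcal1: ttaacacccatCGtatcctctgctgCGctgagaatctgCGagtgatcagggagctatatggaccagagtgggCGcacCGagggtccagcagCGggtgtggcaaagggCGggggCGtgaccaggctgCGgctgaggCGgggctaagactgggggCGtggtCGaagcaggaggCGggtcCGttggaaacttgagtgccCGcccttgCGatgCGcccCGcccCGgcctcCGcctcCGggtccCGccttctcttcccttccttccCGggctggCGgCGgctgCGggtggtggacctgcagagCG
Hpcal4: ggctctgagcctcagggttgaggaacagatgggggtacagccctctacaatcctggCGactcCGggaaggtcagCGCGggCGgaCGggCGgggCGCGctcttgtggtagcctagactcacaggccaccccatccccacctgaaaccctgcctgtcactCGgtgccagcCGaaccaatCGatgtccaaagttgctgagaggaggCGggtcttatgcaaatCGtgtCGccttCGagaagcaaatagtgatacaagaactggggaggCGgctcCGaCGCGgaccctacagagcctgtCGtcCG
Pvalb: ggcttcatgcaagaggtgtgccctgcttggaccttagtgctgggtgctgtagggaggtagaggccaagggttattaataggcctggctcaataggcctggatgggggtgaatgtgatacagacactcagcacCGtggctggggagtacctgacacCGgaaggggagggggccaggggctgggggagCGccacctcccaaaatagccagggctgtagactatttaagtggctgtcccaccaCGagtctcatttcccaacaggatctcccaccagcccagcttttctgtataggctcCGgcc
The first has 27 CpGs, the second 22 and the third 5, and the *Pvalb* window has a ratio of 0.199 at a G+C content of 58.3%. *Hpcal1* and *Hpcal4* had nearly equal ratios. Their levels differed by 4.52 times per kb of gene span, the planned length. The ratio was 131.9 per kb of exonic length, a scale that may also reflect reads from introns. Whether CpG content and level go together was not tested. A second *Pvalb* window, 2163 bp downstream of the first, was CpG-rich with 25 CpGs. For *Hpca* the nearest window lies 1205 bp from the start of the matched GENCODE transcript and had a ratio of 0.207, and the window 2336 bp away had 0.657.

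**Figure D4:**
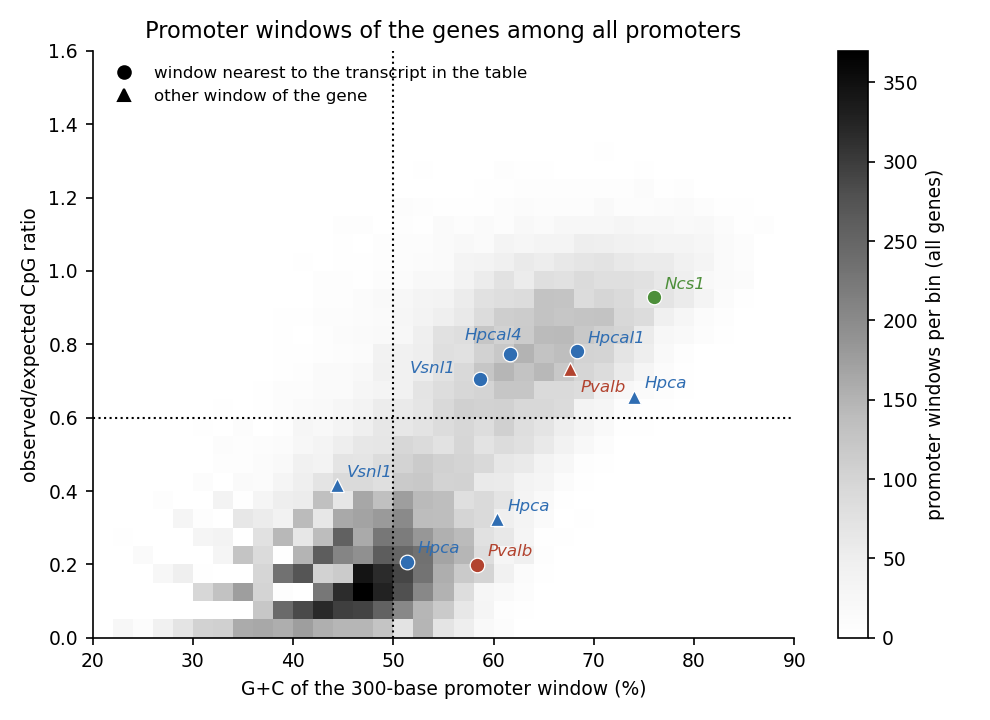
Observed/expected CpG ratio against G+C content of the promoter windows of 6 genes, over the number of windows of all genes per bin (grey). Circles are the windows nearest to the start of the matched GENCODE transcript and triangles are other windows. The dotted lines mark the limits of 0.6 and 50%. Above both lie *Ncs1*, *Hpcal1*, *Hpcal4* and *Vsnl1* with circles and *Hpca* and *Pvalb* with a triangle each.

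Other EF-hand genes gave a setting for these levels. Of 23 related genes 22 had an entry, with a median percentile of 35.3, close to the 32.4 of the members, and 6 lay over the median of all entries. All 3 calmodulin genes, which encode the general calcium sensor of animal cells, were high, from 1554 for *Calm3* to 5557 normalized read counts for *Calm2*. Per kb of gene span the calmodulin genes had 179.5 to 410.6, against 22.1 for *Hpcal1*, and *Calm2* was the highest of the list. The Kv channel interacting proteins, sensors that modulate potassium channels, had levels of 36.4 to 143.7. Among them *Kcnip4* had the lowest level per kb of the list, 0.0320, over a gene of 1136 kb, and *Kcnip2* reached 5.97 per kb, in the range of *Ncs1* and *Hpcal4*. The guanylate cyclase activators *Guca1a* and *Guca1b*, known from photoreceptors as *Rcvrn* is, had 2.10 and 4.46 normalized read counts per kb of gene span, above the 0.520 of *Rcvrn*. Of the Cabp family with *Caln1*, 1 of 6 genes, *Cabp1*, lay over the median, with 317.3. Of the 5 Cib and Chp genes 2 lay over it, *Cib1* with 383.1 and *Chp1* with 584.0, and the lowest was *Cib3* with 0.586. *Scgn*, which encodes secretagogin, a relative of calbindin and calretinin, had 3.36 normalized read counts, or 0.0886 per kb against the 0.133 of *Calb1*.

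The labelled cell type was checked against its markers. All 10 embryonic stem cell markers lay over the median of all entries, from 1272 normalized read counts for *Dppa4* to 14300 for *Tdgf1*, with *Esrrb* lowest per kb of gene span, at 66.1, and *Tdgf1* highest, at 2183. Of 13 neuronal markers 5 lay over the median, with a median percentile of 44.9, and *Dcx*, the lowest per kb, had 0.392 normalized read counts, while *Stmn2*, the highest, had 4585. Of 8 fibroblast markers 2 lay over the median, and the list ran from *Postn* at 1.35 to *Col1a1* at 369.3. Of 6 primitive endoderm markers 2 lay over it, *Dab2* at 461.2 and *Gata4* at 268.5. Per kb of gene span, *Afp*, with 0.897 normalized read counts, was the lowest of these and *Gata6*, with 132.7, the highest. These counts over the median are of levels not corrected for length. Over the median level per kb of gene span lay all 10 embryonic stem cell markers and 2 of the 13 neuronal markers. Of the 8 fibroblast markers 1 lay over it, and of the 6 primitive endoderm markers 0 did. Whether few neuron-like or other cells contributed reads to the members was not tested, and in pooled RNA fewer cells and less RNA per cell cannot be told apart. *Rybp*, the targeted gene, had 13983 normalized read counts and *Yaf2* 3.24. As a mean over UNT and OHT, the level of *Rybp* does not check the labels. That of *Yaf2*, whose deletion all libraries carry, lay at percentile 17.8.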

How the data were processed

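Nuclear RNA from 3 UNT and 3 OHT libraries was depleted of rRNA and sequenced with 40 bp paired-end reads. The authors discarded reads that matched rRNA in bowtie2 and aligned the others to mm10, first with STAR and, where that failed, with bowtie2. A script of the authors counted pairs over RefSeq genes filtered for size and mappability, and the authors then used DESeq2 at its defaults. Versions are not given in the sources used here. The base mean deposited by the authors is a signal, the read count divided by library size factors and averaged over 6 libraries. The other 6 columns of values hold the authors' own comparison of OHT with UNT (log2 fold change, its standard error, statistic, p-values and a threshold flag) and were not used. As no counts per library were analysed, the planned count test, a test in edgeR, was not run, and the depth per library is unknown.

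RefSeq identifiers were matched to the GRCm38.p6 gene table (20450 of 20633 rows), and through GENCODE vM21 (20560 in all). Its coordinates are those of mm10. Percentiles are mid-ranks among all entries. Coding sequences were aligned globally in Biopython 1.88 (match 2, mismatch -1, gap opening -10, gap extension -1), in place of the planned protein alignment, since protein sequences were not used here. The percentile, the CpG ratio and the alignment identity were tested on simulated data, the last with substitutions and no gaps. Python 3.11.15, numpy 2.4.6, pandas 2.3.3 and matplotlib 3.10.9 were used.

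The text names all members, the genes with the highest and lowest level per kb in each list, *Rybp* and *Yaf2*, and entries within 10 kb of a member. Other genes of the lists were named after their values were seen. The members and lists were chosen with earlier results of these data known. Alternatives concerned the entries behind a percentile, the length, the limits for CpG-rich windows and the alignment.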

Additional observations from a re-analysis of the deposited data

How the results depend on the processing

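No paired analysis was possible because the values used are means over all libraries. For the same reason the count test with other size factors, without a filter on low counts, with the replicate number as a block and with each replicate left out was not run, and the stability of any level between libraries is unknown. With no spread to judge by, a value was taken as moved when it changed by over 1.5 times. Of 16 alternatives for the summary values 10 stayed within that limit, as did 30 of 38 for single genes. Among entries with a level of at least 10 only, the median percentile fell to 15.3 over the 7 members left. Over the median of the remaining entries lay 1 member in place of 2 when entries at 0 were left out, when a level of at least 10 was required, per kb of gene span and per kb of exonic length, and 3 did with 1 entry per gene. The highest level per kb was 235.2 times the lowest by gene span and 1834 times by exonic length, where *Calb1* in place of *Pvalb* is lowest. The limits for CpG-rich windows changed no count. The transcript span and the local alignment were added after seeing the data. Levels under 10 rest on few reads.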

Other observations

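The coding sequences of the genes differed in base composition. G+C at the last position of codons ran from 50.8% in *Calb1* to 82.8% in *Hpcal4*, with 82.5% in *Hpca* and 78.4% in *Hpcal1*. *Ncald*, which is 80.2% identical to *Hpcal1*, had 62.4%. The observed/expected CpG ratio of the coding sequence was lowest in *Calb2*, at 0.338, and highest in *Hpca*, at 0.719. In *Hpcal4* the coding sequence of 576 bp held 28 CpGs, and in *Vsnl1*, of the same length, it held 19. The coding sequence lay on 3 exons in each of the visinin-like genes and in *Rcvrn*, on 4 in *Pvalb*, on 7 in *Ncs1* and on 11 in *Calb1* and *Calb2*.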
